A study of Gallus gallus with 9 samples.

Results

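STAR (ENSGALG00000003242), CETP (ENSGALG00000001234) and DISP3 (ENSGALG00000004662) are 3 genes of sterol transport among the 12479 mRNAs of chicken granulosa cells in the deposited table. They were named as genes linked to the transport of cholesterol and its esters. The rule used no measured value, but earlier results of these data were known when it was made. All 3 passed the filter of more than 0.1 TPM (a level of transcripts scaled to transcript length and to the library total) in at least 1 library. The cells came from the F1 follicle, the next to ovulate, of Rohman layers at 210 days of age. The groups were ZT0 (clock hour 9), ZT12 (clock hour 21) and ZT20 (clock hour 5), with 3 hens each, where ZT is zeitgeber time in hours. These are the early and middle stages of the ovulatory cycle and the stage of the luteinizing hormone (LH) surge, and the hens carried no other treatment. Each of the 9 libraries came from a hen of its own, so no hen was followed over time. The comparisons asked which transcripts differed between the stages before the LH surge and the surge itself.

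Steroid hormones are made from cholesterol, and the granulosa layer of the hen's largest follicle is the main source of the progesterone released before ovulation. STAR, the steroidogenic acute regulatory protein, brings cholesterol to the inner mitochondrial membrane, where the side chain is cleaved, and this transfer is the acutely regulated step of steroid synthesis. CETP, the cholesteryl ester transfer protein, exchanges cholesteryl esters and triglycerides between lipoproteins in plasma, and this role is known from human. DISP3, a relative of Dispatched and Patched with a sterol-sensing domain, is known mainly from neural cells of mammals, where it was linked to cholesterol homeostasis.

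In the study's transcript annotation (Ensembl Gallus_gallus v.6.0 genome), STAR lies at chr22:2288879-2291815 and has 7 exons. CETP lies at chr11:668620-674247 with 16 exons, and DISP3 at chr21:5721337-5736802 with 20 exons. The sequences at hand for STAR and for G13560, a lncRNA that the study pairs with it, are the primers that the study designed to measure the transcripts by qPCR. They are shown as the study's assays for these names, and the qPCR values themselves are not analysed here. The primers were not aligned to the transcripts behind the TPM values. Each is written 5′ to 3′, and no base is marked by capitals. The primers give products of 171 bp for STAR and 205 bp for G13560.
STAR forward: agtaccccattgaacacggt
STAR reverse: atacatggctggggtgttga
G13560 forward: atggaagtcagaaggtgcca
G13560 reverse: caactctgagcactgcactg

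STAR was among the most abundant mRNAs at every stage and was far higher at ZT20. The 3 hens had 2133, 2071 and 1011 TPM at ZT0, 1453, 1736 and 1403 TPM at ZT12, and 16462, 13747 and 10507 TPM at ZT20. Every hen at ZT20 lay above every hen of the other stages, while the ZT0 and ZT12 hens overlapped. The means were 1738 ± 631 TPM at ZT0, 1531 ± 179 TPM at ZT12 and 13572 ± 2981 TPM at ZT20 (SD, n = 3 each). STAR took 0.203% ± 0.0736 of all mRNA TPM at ZT0, 0.179% ± 0.0249 at ZT12 and 1.58% ± 0.333 at ZT20 (SD, n = 3 each). By level it ranked 30 to 98 among 12479 mRNAs in the ZT0 libraries, 42 to 62 at ZT12 and 4 in each ZT20 library.

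CETP was a rare transcript throughout. Its levels were 0.561, 0.339 and 0.578 TPM at ZT0, 0.0846, 0.295 and 0.0610 TPM at ZT12, and 1.68, 1.23 and 1.21 TPM at ZT20. The 3 stages did not overlap, with ZT12 lowest and ZT20 highest. Separation between 2 stages was common among all mRNAs. It was found for 41.6% as lower at ZT12 against ZT0, and for 34.6% as higher at ZT20 against ZT12. For ZT20 against ZT0, 23.2% were higher without overlap. The share separated as CETP was over all 3 stages was not counted. Stage means were 0.493 ± 0.134 TPM at ZT0, 0.147 ± 0.129 TPM at ZT12 and 1.37 ± 0.264 TPM at ZT20 (SD, n = 3 each). Even at ZT20 only 16.5 to 21.5% of the mRNAs of a library had a lower level.

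DISP3 was rarer still at ZT20 and stayed below 1 TPM in every library. The hens had 0.207, 0.227 and 0.114 TPM at ZT0, 0.118, 0.0983 and 0.119 TPM at ZT12, and 0.889, 0.537 and 0.600 TPM at ZT20. The ZT20 hens stood above the rest, and the ZT0 and ZT12 hens overlapped. Stage means were 0.183 ± 0.0606 TPM at ZT0, 0.112 ± 0.0116 TPM at ZT12 and 0.675 ± 0.188 TPM at ZT20 (SD, n = 3 each). How many reads stand behind such low values cannot be read from TPM.

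**Figure D1:**
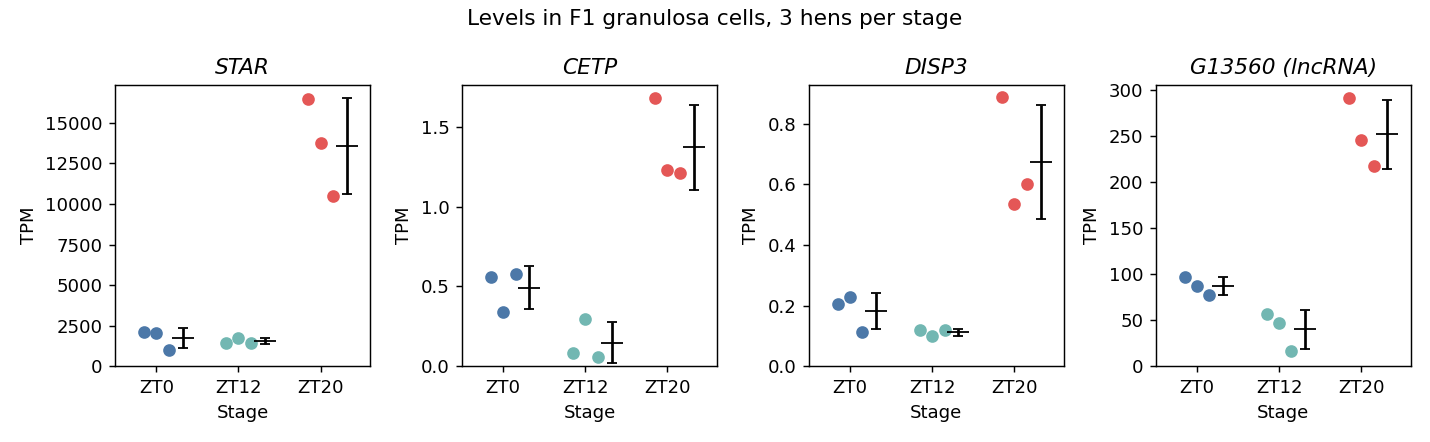
Levels in TPM (vertical axes, each from 0 and on its own scale) of STAR, CETP, DISP3 and the lncRNA G13560 at the 3 stages. Points are hens, and the bars beside them are the mean and SD (n = 3). STAR reaches 10507 to 16462 TPM at ZT20 and CETP 1.21 to 1.68 TPM, and in all 4 panels the ZT20 points lie above all others.

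The comparison of ZT20 with ZT12 is the one across the onset of the LH surge. Each stage was sampled at its own clock hour, so the LH surge and the time of day cannot be told apart. STAR rose by 3.13 on the log2(TPM + 1) scale (SE 0.301, limma adjusted p = 1.25e-05), a ratio of mean TPM of 8.87. CETP rose by 1.05 (SE 0.142, 95% CI 0.73 to 1.36, limma adjusted p = 0.000147), with a ratio of mean TPM of 9.33. DISP3 was 0.59 higher (SE 0.119, 95% CI 0.32 to 0.85, limma adjusted p = 0.00203) with a ratio of mean TPM of 6.05, and stayed under the fold threshold. A transcript was called where the absolute log2 fold change was above 1 and the Benjamini-Hochberg adjusted p under 0.05, so STAR and CETP were called and DISP3 was not. Of the 12472 mRNAs tested, 27.8% were called in this comparison, 16.0% as higher. The adjusted p alone was passed by 3 of 3 genes in the higher direction, against 30.2% of all mRNAs and 31.0% of the 1644 mRNAs with a mean of 0.1 to 1 TPM. The 3 genes were named with earlier results of these data known, so this count is no test of them. Hens that did not overlap and were higher at ZT20 were found for 34.6% of all mRNAs.

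The pseudocount of 1 TPM bears on both rare transcripts. The highest DISP3 level of 0.889 TPM allows a log2 fold change of at most 0.92 from 0 TPM, so DISP3 could not have been called on this scale. With a pseudocount of 0.1 TPM the ZT20 against ZT12 change was 2.68 for CETP (limma adjusted p = 0.000304) and 1.85 for DISP3 (limma adjusted p = 0.00123), and both were then called. The CETP call also stood close to the fold threshold. Its log2 fold change was 0.96 without ZT20 replicate 1, 0.99 without ZT12 replicate 3 and 0.93 after quantile normalization, each with an adjusted p under 0.05 and each no longer called.

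**Figure D2:**
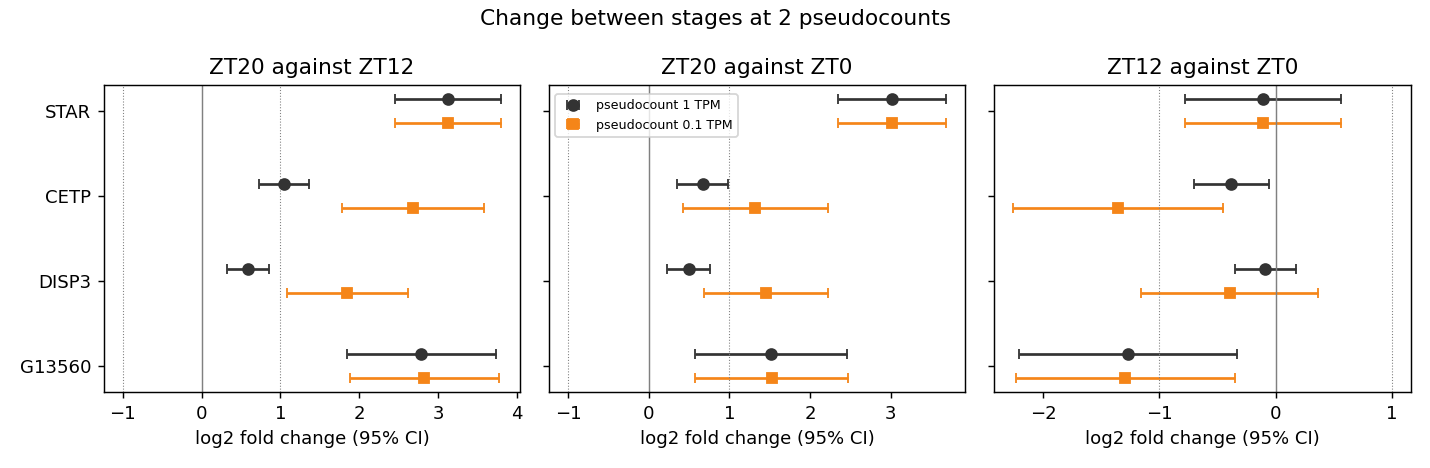
Log2 fold changes (horizontal axes) with 95% confidence intervals of STAR, CETP, DISP3 and G13560 in the 3 comparisons, with a pseudocount of 1 TPM (circles) or 0.1 TPM (squares). Dotted lines mark the fold threshold of 1. STAR is at 3.13 with either pseudocount for ZT20 against ZT12, while CETP moves to 2.68 and DISP3 to 1.85 with 0.1 TPM.

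Against ZT0, the ZT20 hens were higher for all 3 genes. STAR rose by 3.02 on the log2(TPM + 1) scale (SE 0.301, limma adjusted p = 1.73e-05), and its ratio of mean TPM was 7.81. CETP was 0.67 higher (SE 0.142, limma adjusted p = 0.00282, ratio of mean TPM 2.78) and DISP3 0.50 higher (SE 0.119, limma adjusted p = 0.00527, ratio of mean TPM 3.70). STAR was the only one of the 3 genes called here, where 28.2% of mRNAs were called and 11.6% called higher. Higher hens without overlap were found for 23.2% of all mRNAs, and all 3 genes were among them. The adjusted p alone was passed in the higher direction by 20.2% of all mRNAs and 25.6% of those with a mean of 0.1 to 1 TPM. With a pseudocount of 0.1 TPM, CETP (1.32, adjusted p = 0.019) and DISP3 (1.45, adjusted p = 0.00518) were called in limma as well. The comparisons with ZT12 and with ZT0 share the ZT20 libraries.

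Between ZT12 and ZT0 none of the 3 genes was called, and 3.86% of all mRNAs were. STAR differed by -0.11 (SE 0.301, limma adjusted p = 0.815, 95% CI -0.78 to 0.56) and DISP3 by -0.09 (SE 0.119, limma adjusted p = 0.622, 95% CI -0.35 to 0.18). The sign of neither is settled, since STAR was at 0.23 after median ratio scaling and DISP3 at 0.01 after quantile normalization. CETP was 0.38 lower on average (log2 fold change -0.38, SE 0.142, limma adjusted p = 0.0858), and all ZT12 hens lay below all ZT0 hens. That pattern held for 41.6% of all mRNAs, whose median log2 fold change was -0.28 in this comparison and -0.02 after median ratio scaling. With a pseudocount of 0.1 TPM CETP was at -1.36 and called (limma adjusted p = 0.0482).

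By difference in mean TPM, a level relative to the library total, STAR stood apart from the rest of the table. Its mean level was 12041 TPM higher at ZT20 than at ZT12, the largest gain of the 12479 mRNAs, and the next largest was 3462 TPM. By fold it was not extreme, with rank 81 by log2 fold change among the 1165 mRNAs with a mean of at least 100 TPM. The median log2 fold change of those abundant mRNAs was -0.09. The gain of CETP was 1.22 TPM (rank 4992) and that of DISP3 0.564 TPM (rank 5739).

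A ratio of TPM within a library does not depend on how libraries are scaled, so the levels were also set against each other hen by hen. STAR stood at 1750 to 6116 times the CETP level at ZT0, 5884 to 23021 times at ZT12 and 8692 to 11200 times at ZT20. The TPM ratio of STAR to DISP3 lay between 8893 and 10306 at ZT0, between 11842 and 17662 at ZT12, and between 17505 and 25589 at ZT20. That of CETP to DISP3 lay between 1.49 and 5.08 at ZT0, between 0.514 and 3.00 at ZT12, and between 1.88 and 2.28 at ZT20. The TPM ratios of ZT20 and ZT12 thus overlapped for all 3 pairs. Those of ZT20 and ZT0 did not overlap for STAR to CETP and STAR to DISP3, and overlapped for CETP to DISP3. Between ZT12 and ZT0 only STAR to DISP3 did not overlap. The test was made on differences of log2(TPM + 1), which for CETP and DISP3 depend on the pseudocount and on scaling, so it does not show whether the transcripts moved by one factor. On that scale the differences between stages gave an exact permutation p of 0.0357 for both STAR ratios and 0.0464 for CETP to DISP3 (one-sided by construction), over all arrangements of the 9 libraries in 3 stages of 3. After adjustment over the 3 ratios each was at 0.0464, where 0.00357 was the smallest exact p possible. With a pseudocount of 0.1 TPM the adjusted exact p values were 0.0643 for STAR to CETP, 0.0429 for STAR to DISP3 and 0.164 for CETP to DISP3. Calls of STAR to CETP and of CETP to DISP3 therefore rest on the pseudocount. With 1 library left out, each STAR ratio kept its call in 4 of 9 fits and CETP to DISP3 in 1 of 9.

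Among other genes of sterol transport and steroid synthesis, calls were made in both directions. Lists of 83 such genes were drawn up from textbook roles, and 22 of them could be paired with an identifier. At ZT20 against ZT12, 1 of the 22 rose and 4 fell, with a median log2 fold change of -0.09 beside 0.08 over all mRNAs, of which 16.0% rose and 11.7% fell. The 5 called of 22 are near the 27.8% called over all mRNAs, so the count is no result about these genes. At ZT20 against ZT0, 1 rose and 6 fell, with a median of -0.36 beside -0.19 over all mRNAs, of which 11.6% rose and 16.6% fell. At ZT12 against ZT0, 1 fell and none rose, with a median of -0.34 beside -0.28 over all mRNAs, of which 3.32% fell.

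Of the 6 paired genes of sterol transport and storage none rose, while 1 fell at ZT20 against ZT12 (11.7% of all mRNAs) and 3 at ZT20 against ZT0 (16.6% of all mRNAs). STARD4, a soluble START-domain carrier of cholesterol, had 224, 203 and 180 TPM at ZT0, 251, 183 and 129 TPM at ZT12, and 295, 160 and 284 TPM at ZT20. These hens overlapped between all stages, and ZT20 against ZT12 was 0.39 (SE 0.274, limma adjusted p = 0.257). SOAT1, which esterifies cholesterol for storage, averaged 497 ± 21.8 TPM at ZT0, 420 ± 14.9 TPM at ZT12 and 312 ± 15.7 TPM at ZT20 (SD, n = 3 each). Its ZT20 against ZT12 change of -0.43 (limma adjusted p = 0.00799) and its ZT20 against ZT0 change of -0.67 (limma adjusted p = 0.000542) were under the fold threshold. ABCA5, an ABC transporter of late endosomes and lysosomes, averaged 39.7 ± 0.617 TPM at ZT0, 15.6 ± 1.77 TPM at ZT12 and 4.62 ± 1.65 TPM at ZT20 (SD, n = 3 each). It fell in all 3 comparisons, by 1.60 on the log2 scale for ZT20 against ZT12 (limma adjusted p = 7.75e-05). Its call at ZT12 against ZT0 (-1.30) ended with median ratio scaling (-0.96) and quantile normalization (-0.99). LIPC, hepatic lipase, averaged 0.131 ± 0.0779 TPM at ZT20, against 2.32 ± 1.25 TPM at ZT0 (SD, n = 3 each), and fell by 1.48 (limma adjusted p = 0.000684). PCTP, a START-domain carrier of phosphatidylcholine, averaged 47.3 ± 3.65 TPM at ZT20, against 120 ± 24.6 TPM at ZT0 (SD, n = 3 each), and fell by 1.30 (limma adjusted p = 0.00236).

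Among genes of cholesterol synthesis and its control, RNF145 was the only one of 7 that was called. It was higher at ZT20 against ZT12, beside 16.0% of all mRNAs, and against ZT0, beside 11.6%. The count is near these shares and is no result about the list. RNF145 is a ubiquitin ligase that takes part in sterol-driven degradation of HMG-CoA reductase in mammals. It had 94.5, 104 and 53.0 TPM at ZT20, against 28.4, 28.5 and 23.9 TPM at ZT12, and rose by 1.55 (SE 0.225, limma adjusted p = 0.000237).

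Of 9 paired genes of steroid synthesis and its control, 3 fell at ZT20 against ZT12 and none rose, beside 11.7% and 16.0% of all mRNAs. NR5A1 (steroidogenic factor 1) and NR5A2 (liver receptor homolog 1) are nuclear receptors that are known to activate the STAR promoter in mammals. NR5A1 had 52.5, 31.6 and 43.1 TPM at ZT20, against 158, 161 and 216 TPM at ZT12, and fell by 2.06 (SE 0.203, limma adjusted p = 1.48e-05). NR5A2 had 24.4, 38.0 and 36.8 TPM at ZT20, against 366, 316 and 316 TPM at ZT12, and fell by 3.31 (SE 0.167, limma adjusted p = 1.45e-07). Both receptor mRNAs were thus lower at ZT20, where STAR was higher. Whether the receptors bear on the STAR level was not tested, since only RNA was measured. POR, which passes electrons to microsomal cytochrome P450 enzymes, averaged 26.7 ± 7.72 TPM at ZT20, against 116 ± 17.0 TPM at ZT12 (SD, n = 3 each), and fell by 2.11 (limma adjusted p = 2.22e-05). The same 3 genes also fell at ZT20 against ZT0, with log2 fold changes of -2.86 for NR5A1, -3.73 for NR5A2 and -2.34 for POR.

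**Figure D3:**
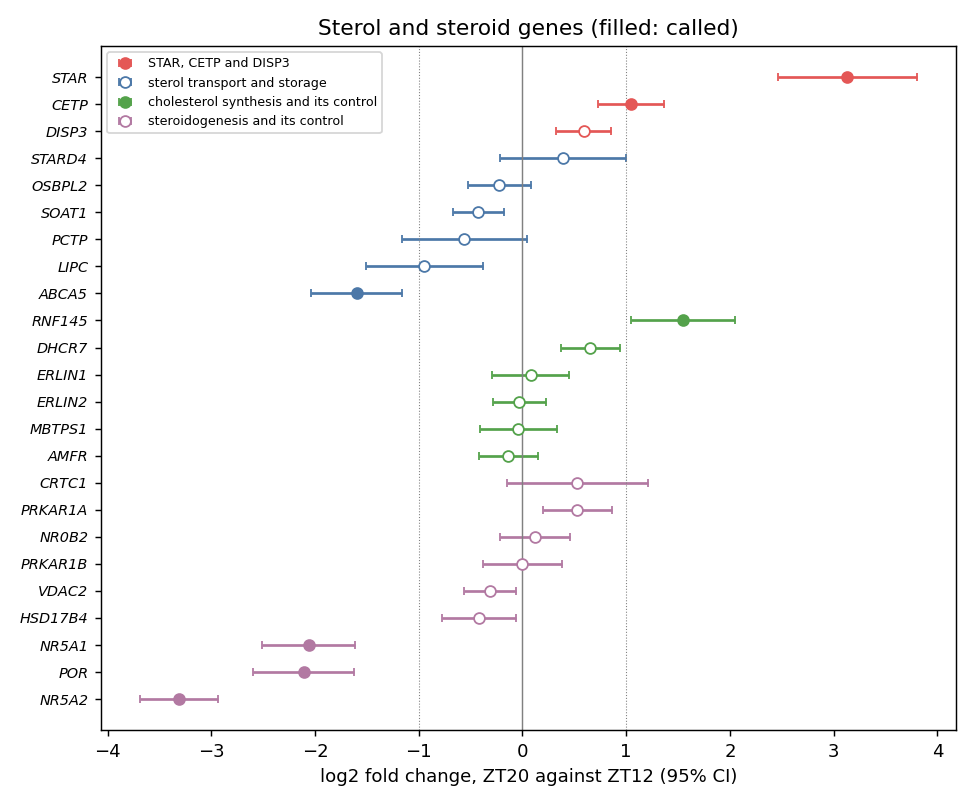
Log2 fold changes of ZT20 against ZT12 (horizontal axis, with 95% confidence intervals) of STAR, CETP, DISP3 and 21 of the 22 paired genes of sterol transport, cholesterol synthesis and steroidogenesis. Filled points were called. STAR (3.13) is at the right end and NR5A2 (-3.31) at the left, and 5 of the 21 genes were called.

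The tissue label was checked against markers, of which the annotation paired only some. Of the 3 paired granulosa markers, NR5A1 and NR5A2 fell at ZT20 as given above, and the summed level was almost wholly ZP3, a zona pellucida protein that hen granulosa cells make in large amounts. The sum was 85765 to 93938 TPM at ZT0, 95454 to 115372 TPM at ZT12 and 84175 to 108181 TPM at ZT20. The 4 paired markers of theca and stroma (FBN1, COL6A3, MXRA8 and MRC2) summed to 2.14 to 3.88 TPM at ZT0, 0.528 to 1.57 TPM at ZT12 and 7.75 to 11.6 TPM at ZT20. The sums had the same order of stages as CETP and did not overlap between stages. The share of mRNAs with this order was not counted, but 41.6% were lower without overlap at ZT12 against ZT0. In that comparison FBN1 and MRC2 were lower without overlap, MXRA8 and COL6A3 overlapped, and none was called. COL6A3 averaged 0.0137 TPM at both ZT0 and ZT12. Of the 4, FBN1 (1.98) and MRC2 (1.76) were called as higher at ZT20 against ZT12, and COL6A3 had 1.09, 0.985 and 0.611 TPM at ZT20, against 0.0252, 0.0118 and 0.00402 TPM at ZT12. CETP and DISP3 are rare like these single markers, and the part of theca or stromal RNA in their change was not tested. The 2 endothelial markers summed to 40.2 to 90.2 TPM at ZT0, 26.9 to 34.7 TPM at ZT12 and 7.04 to 7.94 TPM at ZT20. Their sums were thus also lower at ZT12 than at ZT0, but ran the other way at ZT20. The 5 leukocyte markers summed to 233 to 271 TPM at ZT0, 222 to 350 TPM at ZT12 and 137 to 189 TPM at ZT20. This sum was mostly FYB and CD74, which were lower in all ZT20 hens than in all ZT12 hens. FYB was at -0.52 (limma adjusted p = 0.0185, not called) and CD74 at -1.24 (limma adjusted p = 0.0366, called). Of all mRNAs, 11.7% were called as lower there. The CD74 call was lost in several alternatives, as without ZT12 replicate 1 (-0.68). The rare markers PTPRC (0.37, limma adjusted p = 0.0412) and DOCK2 (0.47, limma adjusted p = 0.00724) were higher in all ZT20 hens than in all ZT12 hens, and not called. CETP, DISP3 and 34.6% of all mRNAs had that pattern of hens. BTK, also rare, was at 0.28 (limma adjusted p = 0.111), and its ZT20 and ZT12 hens overlapped. The part of leukocyte RNA in the values of CETP and DISP3 was not tested either. Smooth muscle markers summed to 1.74 to 5.90 TPM at ZT0, 0.240 to 0.492 TPM at ZT12 and 0.287 to 1.12 TPM at ZT20. The erythrocyte marker had 12.4 to 19.2 TPM at ZT0, 7.78 to 14.4 TPM at ZT12 and 3.87 to 5.59 TPM at ZT20. It was called as lower at ZT20 against ZT0 (-1.55, limma adjusted p = 0.000525), as were 16.6% of all mRNAs. No oocyte marker could be paired. Stained sections of the F1 follicle in the study showed a thinner granulosa layer, with fewer of its cells, at ZT20 than at ZT0 and ZT12. How far this bears on the values here was not tested. In whole-layer RNA, fewer cells of a type and less RNA per cell cannot be told apart.

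**Figure D4:**
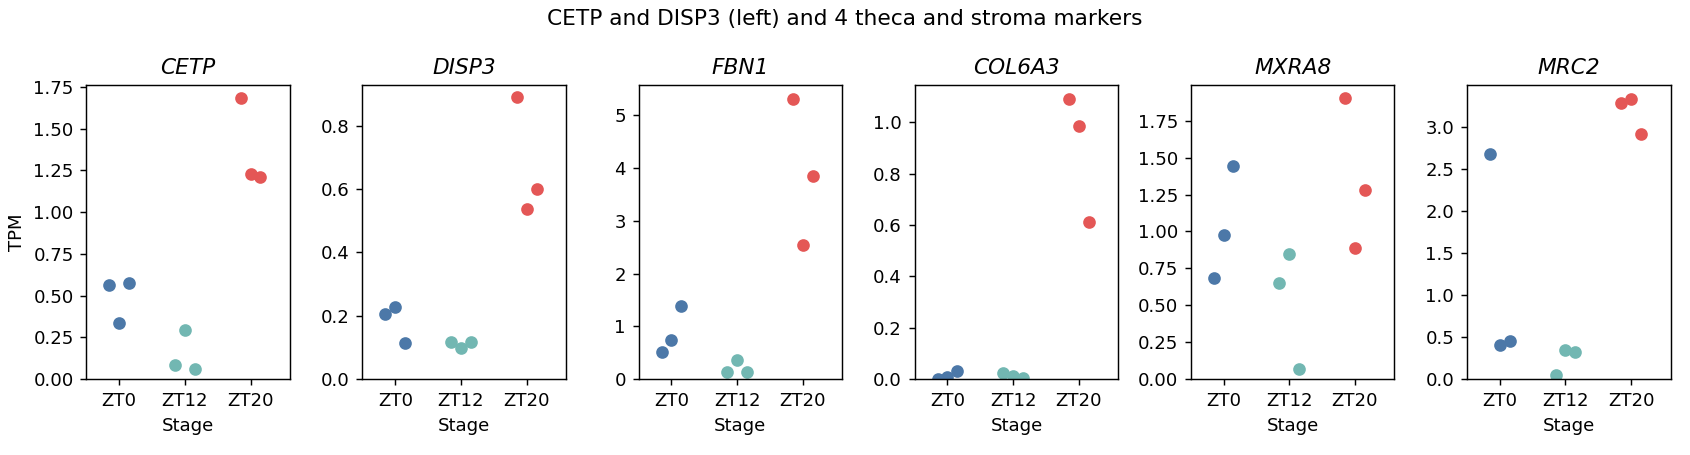
Levels in TPM (vertical axes from 0, each on its own scale) of CETP and DISP3 and of the theca and stroma markers FBN1, COL6A3, MXRA8 and MRC2 at the 3 stages, with 1 point per hen. CETP, DISP3, FBN1, COL6A3 and MRC2 have their highest values at ZT20, while MXRA8 overlaps between ZT20 and ZT0.

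G13560, the lncRNA that the study pairs with STAR, was also highest at ZT20. It had 96.8, 86.8 and 77.6 TPM at ZT0, 57.1, 46.6 and 16.5 TPM at ZT12, and 292, 246 and 218 TPM at ZT20, and the stages did not overlap. It rose by 2.79 for ZT20 against ZT12 (SE 0.433, limma adjusted p = 0.000374), where 20.8% of 7414 lncRNAs were called and 16.0% called higher. Against ZT0 it rose by 1.52 (SE 0.433, limma adjusted p = 0.0186), where 18.3% of lncRNAs were called and 9.00% called higher. That call was lost in 4 of the 9 fits that left out 1 library, namely ZT0 replicate 2 or 3 or ZT20 replicate 1 or 2, with adjusted p values up to 0.0737. ZT12 against ZT0 gave -1.27 (SE 0.433, limma adjusted p = 0.13), which was not called, and 0.0809% of lncRNAs were. In ZT12 against ZT0 the G13560 hens did not overlap and the STAR hens did, but neither transcript was called. Lower hens without overlap were found for 41.6% of all mRNAs in that comparison. The share of lncRNAs without overlap was not counted, in that comparison or the others. The G13560 change was -0.46 after median ratio scaling and -0.64 after quantile normalization. Whether G13560 and STAR differed there was not tested.

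A second lncRNA, G8945, has STAR among its nearby genes in the annotation, at a gap of 200343 bp on chromosome 22. It had 7.30, 7.44 and 5.63 TPM at ZT20, against 5.51, 4.50 and 7.28 TPM at ZT12, and these hens overlapped. Its log2 fold change was 0.22 (SE 0.304, 95% CI -0.44 to 0.88, limma adjusted p = 0.62), so it was not called where STAR was. No lncRNA with a position lay within 100 kb of any of the 3 genes, but only 1220 lncRNAs had one, none of them on chromosome 11.

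Positions were at hand for 1998 mRNAs, and neighbours within 100 kb were taken from these. Of the 10 placed neighbours of STAR, 2 rose at ZT20 against ZT12 and none fell, beside 16.0% and 11.7% of all mRNAs, with a median log2 fold change of -0.10. The overlapping one is ASH2L, a subunit of histone H3K4 methyltransferase complexes, which shares 50 bp with STAR and averaged 136 TPM at ZT20, against 50.4 TPM at ZT12 (log2 fold change 1.42, limma adjusted p = 6.77e-06). Reads of the shared stretch could count for either gene, and STAR is far more abundant. The part of such reads in the ASH2L value was not tested. BAG4, a chaperone cofactor 5184 bp away, rose by 1.14 (limma adjusted p = 0.000186), a call that ended with quantile normalization (0.95). LSM1, a subunit of the mRNA decay ring 1825 bp away, was 0.77 higher (limma adjusted p = 0.0183) and not called, but rose by 1.09 against ZT0 (limma adjusted p = 0.0028). That call ended without ZT0 replicate 3 (0.98), ZT20 replicate 1 (0.91) or ZT20 replicate 2 (0.97). On the other side EIF4EBP1, an inhibitor of cap-dependent translation 13493 bp away, was not called in any comparison.

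CETP had 9 placed neighbours, of which none rose and 1 fell at ZT20 against ZT12, near the 11.7% of all mRNAs that fell. The one that fell was GFOD2, which averaged 7.32 TPM at ZT20, against 26.6 TPM at ZT12 (log2 fold change -1.73, limma adjusted p = 1.72e-06). HERPUD1, a protein of endoplasmic reticulum stress and the nearest on one side (3089 bp), fell by 1.29 at ZT12 against ZT0 (limma adjusted p = 0.00311), a call that ended with median ratio scaling (-0.95). At ZT20 against ZT0 it was at -0.83 (limma adjusted p = 0.000627), where CETP was at 0.67. ENKD1 fell at both ZT12 (log2 fold change -1.03, limma adjusted p = 0.0303) and ZT20 (log2 fold change -1.79, limma adjusted p = 0.000228) against ZT0. The ZT12 call of ENKD1 ended with median ratio scaling (-0.74), quantile normalization (-0.66), the fit of mRNAs and lncRNAs together (adjusted p = 0.0525 in limma) and without each of 5 libraries, namely ZT0 replicates 2 and 3 and all of ZT12. NLRC5, the nearest on the other side (2106 bp), averaged 0.415 TPM at ZT20, against 0.0747 TPM at ZT12 (log2 fold change 0.39, limma adjusted p = 0.0176), and like CETP it was rare.

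Near DISP3, 2 of the 5 placed neighbours rose at ZT20 against ZT12, where 16.0% of all mRNAs did, and all 5 lie on one side. DRAXIN, which encodes a secreted axon guidance protein, averaged 82.2 TPM at ZT20, against 1.01 TPM at ZT12, and rose by 5.37 (limma adjusted p = 7.92e-06). DRAXIN also fell by 2.30 at ZT12 against ZT0 (limma adjusted p = 0.0196), and this call ended with median ratio scaling (-2.04), quantile normalization (-1.94) and without ZT12 replicate 2 (-2.13). AGTRAP, a protein that binds the type 1 angiotensin receptor, averaged 79.4 TPM at ZT20, against 12.9 TPM at ZT12, and rose by 2.51 (limma adjusted p = 1.02e-05). Both are at least 63757 bp from DISP3. FBXO2, the nearest placed gene (50159 bp), was 0.63 higher (limma adjusted p = 0.0307) and not called.

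**Figure D5:**
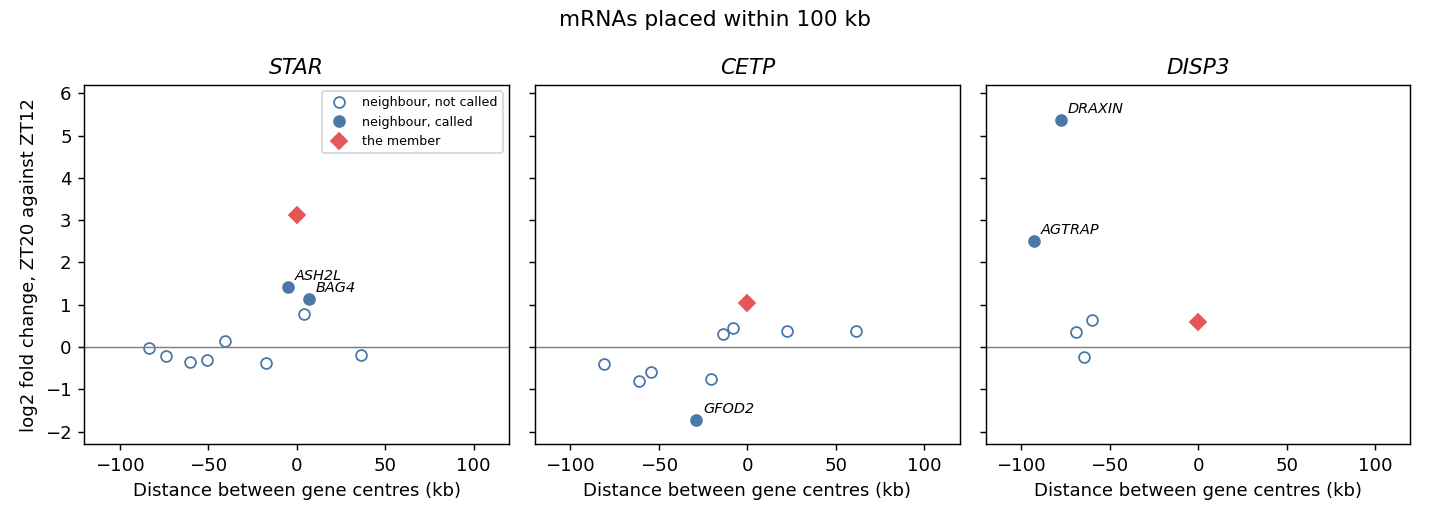
Log2 fold change of ZT20 against ZT12 (vertical axis) of mRNAs placed within 100 kb of STAR, CETP or DISP3, by the distance between gene centres in kb (horizontal axis). Diamonds are the 3 genes and filled circles are called neighbours. ASH2L and BAG4 near STAR are at 1.42 and 1.14, GFOD2 near CETP at -1.73, and AGTRAP and DRAXIN near DISP3 at 2.51 and 5.37.

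The transcripts most like each gene were sought by the root mean square difference of mean-centred log2(TPM + 1) profiles over the 9 libraries, which is 0 for profiles of one shape and size. Candidates, mRNAs and lncRNAs alike, needed a mean of at least 1 TPM in at least 1 stage. For STAR the closest of the 1718 such mRNAs with a symbol were MYO7B (0.28), SH2D3C (0.282) and RUSC2 (0.359), beside a median of 1.53. All 3 were scarce before the surge, where the pseudocount of 1 TPM narrows a change on this scale. From ZT12 to ZT20 their mean TPM rose by larger ratios than the 8.87 of STAR. MYO7B averaged 13.7 ± 2.07 TPM at ZT20, against 0.390 ± 0.126 TPM at ZT12 (SD, n = 3 each). SH2D3C averaged 10.5 ± 2.26 TPM at ZT20, against 0.223 ± 0.0739 TPM at ZT12 (SD, n = 3 each). The closest lncRNAs of 4560 were ENSGALG00000030206 (0.259) and G2233 (0.309), and G13560 had rank 267 with 0.794. The study paired G13560 with STAR by correlation, which leaves out the size of a change. It also reported both as higher in cultured granulosa cells given LH. The rank is therefore no check of that pairing.

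For CETP the closest mRNAs were GLE1 (0.0994), SRP68 (0.104) and STRADA (0.11), and the closest lncRNAs ENSGALG00000053660 (0.112) and G13623 (0.115). GLE1, an mRNA export factor, averaged 14.3 ± 1.12 TPM at ZT20, against 6.77 ± 1.36 TPM at ZT12 (SD, n = 3 each). For DISP3 the closest were the mRNAs FKBP8 (0.102), MAK16 (0.111) and MMP23B (0.113) and the lncRNAs ENSGALG00000051563 (0.123) and ENSGALG00000053451 (0.135). FKBP8 averaged 46.9 ± 1.32 TPM at ZT20, against 33.3 ± 1.80 TPM at ZT12 (SD, n = 3 each). A small difference on the log2(TPM + 1) scale matched these abundant mRNAs with transcripts that changed by larger ratios of TPM. DISP3 itself was under the minimum set for candidates, so mRNAs as rare as DISP3 could not be found as its match. MMP23B was nearer in level to DISP3, with 1.17 ± 0.125 TPM at ZT20, against 0.372 ± 0.179 TPM at ZT12 (SD, n = 3 each).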

How the data were processed

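The authors aligned reads with the aligner STAR 2.6.0c (which shares its name with the gene), assembled transcripts with Cufflinks and estimated TPM by Kallisto. The deposited log2 values were read as log2(TPM + 1) for mRNAs and log2(TPM + 2) for lncRNAs. The second pseudocount was inferred from the smallest value and the library sums. TPM were recovered from these log2 values, and a transcript was tested if any library held more than 0.1 TPM of it. limma 3.58.1 in R 4.3.3 was fitted to log2(TPM + 1) of all 9 libraries with 3 stage means and a mean-variance trend, with Benjamini-Hochberg adjustment, separately for mRNAs and lncRNAs, and was tested on simulated data. The count test of the authors was not run, since the tables hold no counts. Exact permutation tests of ratios were run in Python 3.11.15.

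The genes, lists and markers were chosen with earlier results of these data known. Symbols and positions come from the part of the study's annotation used here (1824 mRNAs with a symbol). Named were the 3 genes, STARD4, SOAT1 and called list genes, the nearest, overlapping and called neighbours, the 3 mRNAs and 2 lncRNAs with the closest profiles, G13560 and G8945. Of the list genes, 1 is counted but its values are not reported here. DHCR7 in the closing section, COL6A3 and the other stromal markers were named after their values were seen. The alternatives were another pseudocount, other filters, scalings and fits, a replicate block and each library left out. Promoter motifs were not analysed here.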

Additional observations from a re-analysis of the deposited data

How the results depend on the processing

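STAR at ZT20 against ZT12 and against ZT0 kept its direction and its call under all 10 alternatives and all 9 fits without 1 library (3.01 to 3.13 and 2.91 to 3.27 under the alternatives, at least 2.98 and 2.67 without 1 library). With a pseudocount of 0.1 TPM, CETP was called at ZT12 against ZT0 (-1.36) and ZT20 against ZT0 (1.32). DISP3 was then called at ZT20 against ZT12 (1.85) and ZT20 against ZT0 (1.45). That pseudocount moved the mRNAs called at ZT12 against ZT0 to 785, from 481 in the main limma fit of this report. It ended the calls of the ratios STAR to CETP (0.45, ZT20 minus ZT12) and CETP to DISP3 (0.83). With no fold change threshold, CETP at ZT20 against ZT0 (0.67) and DISP3 at ZT20 against ZT12 (0.59) and against ZT0 (0.50) were called. The mRNAs called were then 2089, 6638 and 6676 for ZT12 against ZT0, ZT20 against ZT12 and ZT20 against ZT0. In the main fit they were 481, 3465 and 3512. The list genes called were 3, 11 and 14, beside 1, 5 and 7 in the main fit. Quantile normalization ended the CETP call at ZT20 against ZT12 (0.93) and turned DISP3 at ZT12 against ZT0 to 0.01. Median ratio scaling turned STAR at ZT12 against ZT0 to 0.23. At ZT12 against ZT0, median ratio scaling gave 203 mRNAs called (101 higher, 102 lower), against 67 higher and 414 lower in the main fit. Quantile normalization gave 215 (115 higher, 100 lower), and no list gene was called with either (0). At ZT20 against ZT0 the split was 1442 higher and 2070 lower, against 1729 and 1564 after median ratio scaling.

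Without 1 library, STAR at ZT12 against ZT0 ran from -0.46 to 0.07, being 0.07 without ZT0 replicate 1 and 0.05 without ZT0 replicate 2. The mRNAs called there ran from 196 to 699 (196 without ZT0 replicate 3, 222 without ZT12 replicate 2, 282 without ZT12 replicate 3) and the list genes from 1 to 2. CETP at ZT20 against ZT12 ran from 0.96 to 1.14 and G13560 at ZT20 against ZT0 from 1.41 to 1.62. The ratios as ZT20 minus ZT12 ran from 2.02 to 2.21 for STAR to CETP, 2.46 to 2.69 for STAR to DISP3 and 0.40 to 0.56 for CETP to DISP3. In all, 316 of the recomputed values were taken as unchanged. For fold changes and ratios this means the same direction and side of the threshold, and for counts of calls a count of like size. Of the others, 15 were counts that moved, 4 turned sign, 7 gained a call and 30 lost one. The cause of these other changes was not tested beyond what the setting itself changes. The filter of at least 1 TPM in at least 3 libraries removed DISP3, so no value was had.

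Replicate numbers are shared between stages, but the hens differ, and deviations of same-numbered libraries correlated at -0.187 to 0.078, so the numbers did not pair the samples. A replicate block changed no call of the 3 genes or G13560, ended that of ENKD1 at ZT12 against ZT0 (adjusted p = 0.0629 in limma), and called 388, 3466 and 3512 mRNAs, while the ratios lost their calls with the block (2.08, 2.54 and 0.46, adjusted exact p = 0.167 each), over 216 arrangements only. TPM hold no depth, so counting error behind the CETP and DISP3 values is unknown.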

Other observations

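In cholesterol synthesis, a gene that was not called had ZT20 hens above all others. DHCR7, the enzyme of the last step to cholesterol, had 564, 527 and 551 TPM at ZT0, 678, 609 and 531 TPM at ZT12, and 987, 930 and 934 TPM at ZT20. Its log2 fold change was 0.65 for ZT20 against ZT12 (limma adjusted p = 0.00179). ZT20 hens without overlap above the ZT12 hens were found for 34.6% of all mRNAs, and above the ZT0 hens for 23.2%.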
